A study of Mus musculus with 11 samples.

Results

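The dominant barcodes of the lung metastases were the 156 barcode sequences that held 0.5% or more of the sequencing reads of at least 1 of 11 lung libraries, out of 105528 distinct barcodes in all. They were chosen by their share of reads, after rows with an undetermined base were left out, so the number, size and line of these barcodes are given as a description and without a test. The threshold was reached 161 times, because 5 of the barcodes reached it in 2 lungs.

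The lungs came from 129/Bl6 F1 mice that had been pre-treated with vehicle (6 libraries) or with 6-hydroxydopamine (6-OHDA, 5 libraries) and then injected intravenously with a pool of barcoded pancreatic ductal adenocarcinoma (PDAC) lines, syngeneic to the host, and all were collected 3 weeks later. Both groups received the same pool, so the pre-treatment was the labelled difference between them. The groups are those of the sample titles; the library names in the descriptions begin with 6OHDA for all 11 libraries, vehicle included, and so do not separate the groups. The labels do not state the age of the mice, nor whether each library was a separate mouse, so p-values measure the spread between these libraries, which may in part be technical. Libraries held 6436469 to 15665492 reads and 4776 to 20865 barcodes. The labels' protocols mention a spike-in cell line, but no row names it, so a share is a part of the library and not a number of cells.

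6-OHDA is taken up by noradrenergic nerve endings and destroys them, which removes sympathetic innervation. In a barcoded pool, a heritable DNA tag marks each founder cell and its progeny, so reads of a tag in a tissue follow how far that founder's descendants have grown relative to the rest. When a tag is shared by several injected cells, because the tagged cell divided before injection, the same sequence can seed more than 1 animal. A few tags with a large part of the reads are commonly seen in such experiments.

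Each barcode was 20 bases long. Its opening 4 bases are taken here to name the cell line, because reads were concentrated in a few of them, AACC with 50.4% and GTTG with 23.8% of all reads, although no label pairs them with lines. After them came 12 variable bases interrupted by 4 fixed G bases. The following set was printed because it holds the largest barcode of each lung, and capitals mark the line identifier.
AACC#2, vehicle 1: AACCcgagtaggggggaggg
ATCG#1, vehicle 2: ATCGgcggtctgttcgaggg
AACC#8, vehicle 3: AACCtctgacggtgcgaccg
AACC#12, vehicle 4: AACCtcagggtgtccgtttg
ACCT#1, vehicle 5: ACCTattggtggccaggacg
AACC#4, vehicle 6: AACCgccgtctggcggacag
GTTG#3, 6-OHDA 1: GTTGtatggttgagcgtcgg
AACC#6, 6-OHDA 2: AACCatagggtggaggatcg
GTTG#2, 6-OHDA 3: GTTGtcagcacgtgtgaggg
AACC#9, 6-OHDA 4: AACCacagtttgttagtagg
AACC#3, 6-OHDA 5: AACCagagttagatggttag

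A second set was printed because its barcodes were large in 2 lungs or were found in the most lungs. The numbers after # order the printed barcodes of a line by their largest share.
AACC#5: AACCttcggctggacgtctg
AACC#7: AACCggtggccgtttgattg
AACC#10: AACCttagggggggagggag
AACC#11: AACCatagttcgaatggtcg
GTTG#4: GTTGgtggtgggtccgaggg
GTTG#1: GTTGtgggattgctggatag
GTTG#5: GTTGtatgttcgtaagatgg

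A further set holds the largest dominant barcode of each remaining line, and of AACC, so that the lines can be compared.
AACC#1: AACCgatgtccgacagctgg
AATC#1: AATCgcagggtgtacgtatg
AGAG#1: AGAGgttgttaggtcgttcg
AGGT#1: AGGTcacgcgggcgggcgtg
AGTC#1: AGTCccaggtcgtacggagg
CCTT#1: CCTTagcgtgggatggatgg
CTGT#1: CTGTcaagcctgggggcttg
CTTC#1: CTTCtgcgcgggtgagcttg
GTGA#1: GTGAcctgtaagactgttgg

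The first question was how many dominant barcodes a lung held. Vehicle lungs 1 to 6 held 26, 14, 11, 6, 35 and 11. 6-OHDA lungs 1 to 5 held 5, 13, 17, 18 and 5. The mean was 17.2 ± 11.02 in vehicle (SD, n = 6) and 11.6 ± 6.31 after 6-OHDA (SD, n = 5), a difference of -5.57 (6-OHDA minus vehicle) that lay within 1 SD of the vehicle group. The groups overlapped: only vehicle lungs 1 and 5 lay above every 6-OHDA lung, and only 6-OHDA lungs 1 and 5 lay below every vehicle lung. Vehicle lung 5 alone held 35 of the 103 vehicle entries, and without it the difference was -2.

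Vehicle lungs 5 and 1, with the most dominant barcodes, had the fewest barcodes overall. Counting as a colony any barcode with at least 10 reads after all libraries were thinned to 6436469 reads, vehicle lungs 5 and 1 held 1965 and 2001 colonies, the fewest of all. 6-OHDA lungs 1 and 5 and vehicle lung 4, with 5, 5 and 6 dominant barcodes, held 11468, 10380 and 8289, the most of all. Between these ends the order did not hold throughout. 6-OHDA lungs 4 and 3, with 18 and 17 dominant barcodes, held 5580 and 8097 colonies, whereas vehicle lung 6, with 11, held 2936. The part of colony number in the number of dominant barcodes was not tested.

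Together the dominant barcodes held a very unequal part of each lung. In vehicle lungs 1 to 6 they held 24.8%, 18.5%, 8.96%, 3.15%, 33.6% and 11.8% of the reads. In 6-OHDA lungs 1 to 5 they held 3.05%, 13.2%, 10.4%, 11.6% and 6.43%. The means were 16.8 ± 11.1% in vehicle (SD, n = 6) and 8.92 ± 4.12% after 6-OHDA (SD, n = 5), with vehicle lungs 1, 2 and 5 above every 6-OHDA lung and the other 3 within the 6-OHDA range. In vehicle lung 5, 35 barcodes, 0.733% of those listed, thus carried 33.6% of all reads.

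The largest single barcode held 0.552 to 4.07% of a lung. ATCG#1 held 4.07% of vehicle lung 2, with 362023 reads. This was the highest share of any barcode in any library, and AACC#1 followed in the same lung with 2.59%. In the other vehicle lungs the largest held 2.18% (lung 1, AACC#2), 1.08% (lung 3, AACC#8), 0.552% (lung 4, AACC#12), 2.36% (lung 5, ACCT#1) and 1.49% (lung 6, AACC#4). In 6-OHDA lungs 1 to 5 the largest held 0.929% (GTTG#3), 1.29% (AACC#6), 1.35% (GTTG#2), 0.900% (AACC#9) and 2.17% (AACC#3). The leading barcode was rarely far ahead of the next, with a ratio of at most 2.10 over the 11 lungs. Counting error on these shares was small: the 95% exact (Clopper-Pearson) interval was at most 0.0130 percentage points to either side for any dominant barcode, although PCR reads without molecular identifiers are not independent molecules and such intervals cover counting error only.

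Most dominant barcodes lay close to the threshold. Their largest share had a median of 0.696%; 47 of 156 stayed below 0.6%, 42 reached 1% and 10 reached 2%. Of the 10, 9 were largest in a vehicle lung and AACC#3 in a 6-OHDA lung. The barcodes just inside the threshold were AACC#13 (AACCactgaggggatggatg), at 0.508% of vehicle lung 5, and AACC#14 (AACCggggacagaagggatg), at 0.502% of 6-OHDA lung 1. Just outside lay AACC#15 (AACCtaaggtggattgctgg), with 67019 of the 13410390 reads of vehicle lung 4, and ACCT#2 (ACCTcatgtacgcctgcccg), at 0.497% of vehicle lung 5.

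The dominant barcodes came from 12 of the 243 identifiers seen. AACC contributed 124, or 79.5% of the members, whereas it made up 50.4% of all reads and 16.3% of all colony barcodes. GTTG contributed 16, AGTC 5 and AGAG 3. The remaining lines with a member contributed 1 each. Per 1000 colony barcodes of the line, 16.2 of AACC became dominant, 4.34 of GTTG and 0.157 of CCTT. CCTT had nearly as many colonies as AACC (6364 against 7652), but CCTT#1, at 0.646% of vehicle lung 1, was its only dominant barcode.

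AACC led the dominant set in both groups. Vehicle lungs 1 to 6 held 21, 11, 9, 4, 31 and 9 dominant AACC barcodes, and 6-OHDA lungs 1 to 5 held 4, 12, 11, 14 and 2. These held 21.7 ± 13.5% of the AACC reads of a vehicle lung (n = 6) and 14.0 ± 7.87% of those of a 6-OHDA lung (n = 5). The spread within vehicle ran from 5.12% in lung 4 to 43.3% in lung 5, and the 6-OHDA values, from 4.84% in lung 1 to 22.3% in lung 2, overlapped with it. Dominant GTTG barcodes numbered 7 over the vehicle lungs and 10 over the 6-OHDA lungs, of which 5 lay in 6-OHDA lung 3 and 4 in 6-OHDA lung 4. GTTG had none in vehicle lungs 3 and 6 or in 6-OHDA lungs 2 and 5. The other 10 lines gave 11 entries in vehicle and 5 after 6-OHDA, and in vehicle lung 4 and 6-OHDA lungs 1 and 4 they gave 0.

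Under rare identifiers a single barcode could hold nearly all of the reads. ATCG#1 made up 98.0% of the ATCG reads of vehicle lung 2, and AATC#1 made up 99.9% of the AATC reads of vehicle lung 5. AATC is a rare identifier: 379 of its barcodes were listed over the 11 libraries, and only 4 of them passed the minimum for a colony. ATCG, the next rarest with a member, had 257 colony barcodes. The 99.9% was thus reached with almost no other AATC colony, and no label shows that AATC marks a line. GTGA#1 held 55.4% of its line in 6-OHDA lung 3, AGAG#1 55.3% in vehicle lung 1, ACCT#1 50.5% in vehicle lung 5, and CTGT#1 42.3% in 6-OHDA lung 2. AGTC had a pair of dominant barcodes in 6-OHDA lung 5, which together held 51.9% of its reads there, AGTC#1 alone 28.8%. By contrast AGGT#1 and CCTT#1 held 8.47% and 8.31% of their lines, and AACC#1, the largest AACC barcode of the series, 4.09%.

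The next question was whether a barcode that dominated a lung was present in the others. Presence below the threshold was not itself used to choose the members. A barcode present in more lungs had more chances to reach 0.5%, however, so the choice can favour barcodes that recur. Over 1555 pairs of a dominant barcode and a lung where it stayed below the threshold, it was found as a colony in 396 (25.5%), had reads below the minimum in 102 (6.56%) and had no read in 1057 (68.0%). A count of 0 allows a share of up to 0.192 to 0.466 reads per 1000000 (RPM), depending on the depth of the library. Of the 156 barcodes, 33 were found as a colony in their own lung alone, 89 in 2 to 5 lungs and 34 in 6 or more. GTTG#4 was the only member found in all 11. The median was 3 lungs.

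Recurrence was more common among dominant barcodes than among colony barcodes in general. Of the members, 123 of 156 (78.8%) were found as a colony in at least 1 lung besides the lung where they were largest. Of all 47038 colony barcodes 26.2% were. Within AACC the values were 104 of 124 members (83.9%) and 37.7% of all AACC colony barcodes, and within GTTG 15 of 16 (93.8%) and 57.2%. The other 10 lines stood at the background: 4 of their 16 members (25%) were found elsewhere, close to the 24.8% of all colony barcodes of those lines, and these 4 were AGAG#1, AGTC#1, AATC#1 and a second AGTC barcode. Recurrence rose with size well below the threshold too. Size is here the largest share over the lungs, which has the same link to the number of lungs holding a barcode. Among AACC barcodes with a largest share of 0.001 to 0.01%, 20.9% were found elsewhere, and this was 44.4% from 0.01 to 0.05%, 60.0% from 0.05 to 0.1%, 68.0% from 0.1 to 0.25% and 78.9% from 0.25 to 0.5%. For GTTG the same classes had 35.5%, 66.8%, 86.0%, 90.7% and 88.6%, with no further rise in the last. GTTG barcodes well below the threshold thus recurred nearly as often as GTTG members.

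Most members were nevertheless large in a single lung. Of the 145 members with any read in another library, the share in the largest lung was a median of 19.5 times that in the next, at least 10 times in 88 and at least 100 times in 44. The ratio was below 2 in 10, the lowest being 1.15. Members were chosen by their highest share, which raises this ratio, and it is not given here for other colony barcodes. The other 11 members had no read outside their own library, among them ACCT#1 with 152120 reads and CCTT#1 with 52088. ATCG#1 had 362023 reads in vehicle lung 2, 4 in vehicle lung 1 and 0 in the other 9 libraries. AACC#3 had 334767 reads in 6-OHDA lung 5 and at most 2 in any other library.

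Presence elsewhere was then set out by lung. Each lung was asked for the barcodes that dominated only other lungs, 121 to 151 of them. Vehicle lungs 1 to 6 held 10%, 21.8%, 31.7%, 27.3%, 10.7% and 18.6% of these as colonies. 6-OHDA lungs 1 to 5 held 42.4%, 29.4%, 31.7%, 15.9% and 35.1%. The means were 20.04 ± 8.74% (SD, n = 6) and 30.9 ± 9.70% (SD, n = 5), a difference of 10.8 percentage points. The groups overlapped, with 6-OHDA lung 4 below 4 of the vehicle lungs, and 2 of the 5 6-OHDA lungs above every vehicle lung.

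Barcodes that never dominated also had the higher mean in 6-OHDA lungs. Of non-member barcodes that were colonies in another lung, 4.98 ± 3.23% were found in a vehicle lung (n = 6) and 9.51 ± 2.86% in a 6-OHDA lung (n = 5), where the lowest was 6.02%. Members dominant elsewhere were found more often than these in 11 of 11 lungs, by a factor of 4.49 ± 1.08 in vehicle and 3.24 ± 0.499 after 6-OHDA. Among AACC alone they were also found more often in 11 of 11 lungs, at 19.7 ± 9.79% against 7.72 ± 3.61% in vehicle and 30.01 ± 10.8% against 12.9 ± 4.02% after 6-OHDA. The lungs share members and comparison barcodes, so the 11 values are not independent. The comparison barcodes were also not matched on size. AACC barcodes with a largest share of 0.25 to 0.5% were found in a mean of 2.11 other lungs, and AACC members in 2.52.

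Where a barcode dominant in another lung was present, its share was higher in vehicle lungs. Its median size was 325, 637, 525, 208, 448 and 973 RPM in vehicle lungs 1 to 6 and 171, 72.0, 154, 125 and 150 RPM in 6-OHDA lungs 1 to 5. All 6 vehicle values lay above all 5 6-OHDA values, with means of 519 ± 268 RPM (n = 6) and 134 ± 38.6 RPM (n = 5). At a threshold of 1% in place of 0.5% the groups overlapped. Beside this, the median of all colonies was also higher in vehicle, at 45.0 ± 22.1 against 18.4 ± 3.70 RPM, though with overlap, and that of AACC colonies was 224 ± 111 against 73.9 ± 15.6 RPM. Set against the AACC colonies of its own lung, the median AACC barcode dominant elsewhere stood at percentile 64.3 ± 11.3 in vehicle and 59.8 ± 10.8 after 6-OHDA, so on that scale the groups overlapped widely. It was above the AACC median in 9 of 11 lungs, the exceptions being vehicle lung 1 (325 against 336 RPM, from 9 barcodes) and 6-OHDA lung 2 (58.3 against 75.3 RPM). The largest barcode in these sets held 0.478% of a lung, since the rule keeps them below the threshold.

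Barcodes that dominated in either group were found in the other group more often than colony barcodes in general, as a description without a test. Of the members, 100 dominated vehicle lungs alone, 53 6-OHDA lungs alone, and 3 a lung of each group. Of the 100 from vehicle, 71 were found as a colony in at least 1 6-OHDA lung and 29 in none, and 52 were found in at least 1 further vehicle lung. Of all colony barcodes that were largest in a vehicle lung, 23.7% were found in a 6-OHDA lung. Within AACC, 63 of 83 such members (75.9%) and 34.8% of such colony barcodes were. Of the 53 from 6-OHDA, 37 were found in at least 1 vehicle lung and 16 in none, and 33 were found in at least 1 further 6-OHDA lung. Of all colony barcodes that were largest in a 6-OHDA lung, 12.6% were found in a vehicle lung. Within AACC, 28 of 39 such members (71.8%) and 18.4% of such colony barcodes were. Recurrence rose with size among AACC barcodes, as given above, and these backgrounds are not matched on size. The numbers of lungs searched differ, so the counts from vehicle and from 6-OHDA are not compared with each other.

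By lung, members chosen in vehicle were found in 16.5 ± 9.07% of cases in a vehicle lung other than their own (n = 6) and in 30 ± 9.90% in a 6-OHDA lung (n = 5). Members chosen after 6-OHDA were found in 23.9 ± 8.66% in a vehicle lung and in 32.1 ± 11.1% in a 6-OHDA lung other than their own. Both sets thus had the higher mean in 6-OHDA lungs. In 9 of 11 lungs, including all 6 vehicle lungs, the 6-OHDA set was found more often than the vehicle set, the exceptions being 6-OHDA lungs 3 and 5. Members dominant in a lung were left out there, although they are present in it. In vehicle lungs 66 to 94 of the vehicle set thus remained, against all 53 of the 6-OHDA set. In 6-OHDA lungs all 100 of the vehicle set remained, against 35 to 48 of the 6-OHDA set. This exclusion lowers the vehicle set in vehicle lungs and the 6-OHDA set in 6-OHDA lungs. The 2 sets are also of different size and share lungs, and the difference was not tested.

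The barcodes that reached the threshold in 2 lungs were of AACC and GTTG. AACC#11 held 0.527% of 6-OHDA lung 1 and 0.603% of 6-OHDA lung 4, and 0.00731%, 0.0979% and 0.00685% of 6-OHDA lungs 2, 3 and 5. In vehicle it held 0.0305% of lung 4 and 0.106% of lung 6, with no read in the other 4. AACC#7 held 1.27% of 6-OHDA lung 2, 0.529% of 6-OHDA lung 3 and 0.0193% of 6-OHDA lung 1. In vehicle lungs 3, 4 and 6 it held 0.000823%, 0.0139% and 0.0977%, and no read was seen in the remaining 5 libraries.

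The other 3 crossed the groups. AACC#5 held 1.46% of vehicle lung 1, 0.467% of vehicle lung 4 and 0.619% of 6-OHDA lung 3. Its remaining values were 717 reads in vehicle lung 3, 259 in 6-OHDA lung 5 and 1 in vehicle lung 5, with none in 5 libraries. It was thus found as a colony in 5 lungs. AACC#10 held 0.543% of vehicle lung 5 and 0.819% of 6-OHDA lung 2. It held at most 0.0128% of vehicle lungs 2, 4 and 6 and 6-OHDA lung 1, and missing from 5 libraries. GTTG#4 held 0.504% of vehicle lung 1 and 0.579% of 6-OHDA lung 3. In the other vehicle lungs it held 0.128%, 0.108%, 0.133%, 0.0461% and 0.0397% (lungs 2 to 6), and in 6-OHDA lungs 1, 2, 4 and 5 0.00698%, 0.0213%, 0.0357% and 0.0145%. The groups overlapped.

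GTTG#1 and GTTG#5, found in 10 lungs each, showed a similar breadth. GTTG#1 held 1.43% of vehicle lung 1 and 0.255% of vehicle lung 6, while its other 8 lungs ranged from 0.000254 to 0.0980% and vehicle lung 2 had none. GTTG#5 held 0.511%, 0.282%, 0.0696%, 0.0660% and 0.0503% of vehicle lungs 1 to 5 and no read of vehicle lung 6. It held 0.0449%, 0.00680%, 0.126%, 0.138% and 0.175% of 6-OHDA lungs 1 to 5, so the groups overlapped. AACC#2 and AACC#6, each the largest of its lung, were found in 7 and 8 lungs, whereas AACC#8, AACC#12, AACC#3 and GTTG#3, also the largest of theirs, were found as a colony in no further lung. AATC#1 was found in 5 lungs and held 0.762% of vehicle lung 5, 0.119% of vehicle lung 3, and 0.0182%, 0.0425% and 0.000220% of 6-OHDA lungs 1, 3 and 4.

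To ask whether single barcodes differed with 6-OHDA, read counts were tested across all 5236 barcodes with at least 10 reads in 3 or more libraries. With edgeR's quasi-likelihood fit, 0% of them were called after Benjamini-Hochberg adjustment. Of the 156 members 92 entered the test, and none was called either. Their SE on the log2 scale ran from 3.41 to 6.43, apart from 1 member with no finite SE. Large changes could thus go uncalled. At an unadjusted p under 0.05 there were 592 barcodes higher and 110 lower after 6-OHDA and 4 members (1 higher, 3 lower). DESeq2 gave no adjusted p to 1653 of the 5236 barcodes, and gave it to only 45 of the 92 members. Of the 3583 barcodes with an adjusted p it called 643, 555 higher and 88 lower. Among them were 5 of the 45 members, 2 higher and 3 lower. These 5, named after their values were seen, were AACCagcgggcgactggtcg, AACCataggcggggggttag, AACCcggggctgtctgggtg, AACCgcagtacgatggcctg and GTTGgcagtgggctggaagg. The tools thus differed, over sets of barcodes that were not the same, and no member is reported here as changed.

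Among the members tested the estimated log2 change had a median of -2.23, with 34 above 0 and 58 below, against a median of 0.63 over all barcodes tested. Because 103 of the 161 entries that chose members were in vehicle lungs, the sign of these estimates is in part set by the choice. The median was -0.47 without vehicle lung 5, and it turned to 1.39 with the replicate number as a block. The lowest edgeR value of a member was an adjusted p of 0.0829, for AACCactggtggtagggccg, which lies outside the naming rule and was picked after its value was seen. This was also the lowest adjusted value over all barcodes tested. The barcode held 0.617%, 0.0151% and 0.00718% of 6-OHDA lungs 3, 1 and 2 and had 1 read in vehicle lung 6 and none in the other vehicle lungs. Its test thus includes the share in 6-OHDA lung 3 that made it a member.

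Concentration over all barcodes was asked with a value that does not depend on the 0.5% threshold, the number of largest barcodes that together hold 50% of the reads. It was 99, 121, 364, 385, 78 and 155 in vehicle lungs 1 to 6 and 544, 263, 342, 226 and 423 in 6-OHDA lungs 1 to 5. The geometric mean was 165 in vehicle and 342 after 6-OHDA, or 1.05 ± 0.46 (SE) on the log2 scale, which did not pass (two-sided exact permutation p = 0.0628, 6 against 5 lungs). Vehicle lungs 1, 2, 5 and 6 lay below every 6-OHDA lung, whereas 3 and 4 lay among them. It passed without vehicle lung 3 (log2 difference 1.28, exact permutation p = 0.0397) or vehicle lung 4 (1.29, exact permutation p = 0.0317), the deepest vehicle libraries. As these lay among the 6-OHDA lungs, leaving either out widened the difference. Leaving out any other lung gave an exact permutation p of 0.0619 to 0.133.

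Dominance within a line was tested last, as the share of a line's reads held by its largest barcode, in the 16 lines with at least 20 colonies in every lung. The fitted log2 change after 6-OHDA was below 0 in 15 of 16 lines, although in GTGA, at -0.02, the mean percentage was higher (17.8 ± 21.1% against 13.4 ± 6.69%), and limma called 2 of them (12.5%), GTTG and CATG. In GTTG it held 16.4%, 10.6%, 1.41%, 1.496%, 14.3% and 4.35% in vehicle lungs 1 to 6 and 2.75%, 1.14%, 4.02%, 2.09% and 0.828% in 6-OHDA lungs 1 to 5. Vehicle lungs 3 and 4 thus lay inside the 6-OHDA range. The log2 change was -1.52 ± 0.51 (SE, limma adjusted p = 0.0495). All 16 lines had this same SE, because limma pooled the spread between libraries over the lines. SE and p therefore do not measure the spread of GTTG alone, and the lines, which share the same lungs, are not independent. In CATG, a line with no dominant barcode, the share was 15.9 ± 7.93% in vehicle (n = 6) and 5.89 ± 3.60% after 6-OHDA (n = 5), with a log2 change of -1.43 and the same adjusted p from limma. AACC, which supplied most of the members, had 2.76 ± 1.003% and 2.52 ± 1.73% (log2 change -0.26, limma adjusted p = 0.761). AGAG had 28.4 ± 18.4% and 9.37 ± 2.89%, which did not pass (log2 change -1.34, limma adjusted p = 0.0548). Both calls ended when vehicle lung 1, 2, 5 or 6 or 6-OHDA lung 1, 2 or 5 was left out and 1 call remained without 6-OHDA lung 3. Colony numbers also differed between the groups, and their part in these shares was not tested.

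The sequences of the dominant barcodes were then compared with those of other colonies. No 2 members differed at fewer than 3 of the 20 positions. At 3 lay AACCacggctgggatgtagg and AACCtgggctgggatgcagg, picked after their values were seen. They held 0.606% and 0.695% of vehicle lung 1 and 0.0736% and 0.0937% of vehicle lung 4, with no read elsewhere. The other pairs at 3 positions were largest in different lungs. Whether members close in sequence had separate founders was not tested. Of the 161 entries, 16 had a barcode 1 base away in the same library, at most 2 of them, whose reads came to at most 0.408% of the dominant barcode's, so neighbouring sequences held few of the members' reads. The number of G among the 12 variable bases ran from 0 to 7 and averaged 3.38 ± 1.68 (SD over barcodes) in AACC members and 3.34 ± 1.60 in other AACC colonies. G-rich members such as AACC#2 and AACC#10 had 7.

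Some members had a companion with the same 16 bases after the identifier but another identifier. This held for 21 of 156 members (13.5%) and for 770 of 46882 other colony barcodes (1.64%). Within AACC it was 18 of 124 (14.5%) against 1.98%. Among smaller AACC barcodes it was 1.21% at 0.001 to 0.01% of a lung, 3.40% at 0.1 to 0.25% and 8.30% at 0.25 to 0.5%. There were 22 companions, 17 of them with a single read in the whole series, and 16 were in the library where their member was largest and in no other. The exception in size was ACCCagagttagatggttag, the companion of AACC#3, with 445 reads in 6-OHDA lung 5, or 0.133% of the reads of AACC#3 there. It differs from AACC#3 at a single base, within the identifier, and so is also among the neighbouring sequences counted above. No companion thus came to more than 0.133% of the reads of its member.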

How the data were processed

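Genomic DNA of 11 lungs had been amplified (32 µg, 27 cycles, per the labels' protocols) and sequenced over a barcode cassette. The deposited values are raw read counts per barcode cluster, in 1 table per library, per the file headers; which tool clustered them is not given in the sources used here. Of 135364 listings, 4 with an undetermined base were dropped. Groups and numbers came from the sample titles. Members reached 0.5% of the reads of a library. For presence, libraries were thinned without replacement to 6436469 reads, and 10 reads (1.55 RPM) were required. Members, lists and tests were chosen with earlier results of these data known.

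Barcode counts were tested with edgeR 4.0.16 (library size as total reads) and line values with limma 3.58.1 on log2 percentages, with Benjamini-Hochberg adjustment over all features and a threshold of 0.05. DESeq2 1.42.0 (poscounts) was an alternative. Single values were compared by exact permutation of the group labels. The edgeR script was run on simulated counts with a fixed dispersion that was not estimated from these data. That run therefore does not show the power of the test here. The highest correlation between libraries was 0.123, so none was treated as a duplicate. Named barcodes are the largest of each lung and of each line, those at the threshold in 2 lungs, the 3 found in the most lungs, the 2 nearest to the threshold on either side, and any that edgeR called. Alternatives were other thresholds, read minima, scalings, merging of barcodes 1 base apart, and leaving out each lung. Other software was R 4.3.3 and Python 3.11.15 with scipy 1.17.1, numpy 2.4.6 and pandas 2.3.3.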

Additional observations from a re-analysis of the deposited data

Results flagged for a closer look

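Of 60 groups of 4 to 10 lungs examined, 8 held a lung whose gap to the nearest other exceeded Dixon's 95% value, and chance flags about 1 in 20 groups. In vehicle lung 2 the largest barcode, ATCG#1, held 1.57 times the share of the next, the highest such ratio among vehicle lungs. Vehicle lung 4 stood apart with 0 dominant barcodes from lines other than AACC and GTTG. The other flags concern the share of a line held by its largest barcode after thinning. This was 5.49% for AACC in 6-OHDA lung 5 (AACC#3), 42.2% for CTGT in 6-OHDA lung 2 (CTGT#1), 55.4% for GTGA in 6-OHDA lung 3 (GTGA#1) and 8.34% for CCTT in vehicle lung 1 (CCTT#1). In lines without a dominant barcode it was 12.1% for CATG in 6-OHDA lung 4 and 19.8% for TTCC in 6-OHDA lung 3.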

How the results depend on the processing

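The difference in dominant barcodes per lung (6-OHDA minus vehicle) was -37.2 at a threshold of 0.25% and ran from -7.80 to -2 when each lung was left out. The difference in members found elsewhere kept its direction in all settings run, and leaving out each lung gave 7.37 to 14.9 percentage points. The difference in their median size, a value with alternatives chosen after seeing the data, was -1.85 on the log2 scale, -0.95 at 0.25%, and -2.28 to -1.40 leaving out each lung. The log2 difference in barcodes holding 50% of reads ran from 0.83 to 1.29 leaving out each lung. DESeq2 called 643 barcodes and every edgeR setting 0. Lines called by limma numbered 2, but 0 after merging barcodes 1 base apart, without thinning or with a minimum of 30 reads, 4 with a minimum of 2 reads, 5 with lines of at least 5 barcodes, and 0 to 3 leaving out each lung. Same-numbered lungs did not deviate together (correlations -0.038 to 0.019). The highest correlation between any libraries was only 0.123, so this check cannot tell whether the numbers pair the lungs. With the replicate block limma called 0 lines and edgeR 0 barcodes. The log2 difference in barcodes holding 50% of reads was then 1.03 (exact permutation p = 0.25). Depth limits absence: no read allows up to 0.466 RPM in the shallowest library.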
